A study of Homo sapiens with 16 samples.

Results

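The comparison described here is GSK126 added to UNC0638 in RPMI-8226 cells, that is, RPMI-8226 cells given GSK126 and UNC0638 together against RPMI-8226 cells given UNC0638 alone. RPMI-8226 is an established human multiple myeloma cell line, a tumour of plasma cells. The arrays were chosen by their titles, which gave 4 arrays of the 16 in the series, 2 of each group. Each inhibitor was used at 1 µM for 6 days, and each group had 2 biological replicates. The other arrays used beside them were RPMI-8226 cells given the solvent DMSO or GSK126 alone and the same 4 groups of MM.1S, another myeloma cell line. The comparison asks what inhibition of EZH2 adds once G9a is inhibited.

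GSK126 inhibits EZH2, the catalytic subunit of Polycomb repressive complex 2 (PRC2), which trimethylates lysine 27 of histone H3, a mark found at silent developmental and lineage genes. UNC0638 inhibits G9a (gene EHMT2) and the related GLP (EHMT1), which dimethylate lysine 9 of histone H3, another mark of silent chromatin. Both enzymes are active in myeloma cells, and genes that a plasma cell has switched off, such as those of other blood lineages, of the germline and of the interferon response, are among the genes at which such marks are known. Type I interferon acts through a complex that holds IRF9 and binds the interferon-stimulated response element in the promoters of its target genes. IRF4 and its target MYC are transcription factors on which myeloma cells depend.

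Of 50599 probes, 22701 passed the filter, which asked that the scanner software marked them well above background on both UNC0638 arrays or on both combination arrays. These probes were tested, and they stood for 15746 genes when 1 probe was taken per gene symbol. A level is the log2 intensity of a probe minus the 75th percentile of its array, and a difference is the mean of the 2 arrays with both inhibitors minus the mean of the 2 UNC0638 arrays. A probe was called when its adjusted p in limma was below 0.05. On the 8 RPMI-8226 arrays between 46.5% and 49.7% of the spots were well above background, and the 75th percentile lay between 256 and 349. Across the tested probes the replicate arrays correlated with r = 0.992 for UNC0638 and r = 0.988 for both inhibitors. Same-numbered replicates deviated together from their groups, so for this comparison a fit with the replicate number as a block is given where it changes a list's count of calls or the call of a named gene. Of 10 plasma cell markers, 9 were well above background in all 4 RPMI-8226 groups, the exception being CD27.

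More probes were called higher than lower when GSK126 was added to UNC0638. In all, 643 probes (2.83% of those tested) were higher and 160 (0.705%) were lower with both inhibitors than with UNC0638 alone, over 570 and 129 gene symbols. With the replicate block the counts were 1257 (5.54%) and 436 (1.92%), and all probes called without the block were also called with it. The called rises were large, with a median of 2.32 on the log2 scale and 590 of 643 over 2-fold, whereas the called falls had a median of -1.14 and 109 of 160 over 2-fold. On the UNC0638 arrays 300 of the 643 higher probes were well above background on neither array, so that only a lower bound of their rise can be given. Those 300 passed the filter only through the combination arrays, on which they are high. Their direction was thus set by the filter, and their calls and adjusted p-values are descriptions. The same held for 23 of the 160 lower probes, which passed only through the UNC0638 arrays. The balance depended on the measure. By non-overlapping arrays alone it was the opposite, since 22.4% of the tested probes had both combination arrays above both UNC0638 arrays and 38% had them below. At 2-fold with no test 1404 probes were higher and 311 lower. In 1 fit over all 16 arrays, with the same threshold, 1427 were called higher and 1252 lower. Over all tested probes the median difference was -0.09, and it moved by 0.11 when the arrays were scaled on the probes detected on all of them. Under that scaling 87.4% of the calls were rises, against 80.1% in the main setting and 72.5% after normexp background correction. Of the 643 higher probes, 249 were still called without UNC0638 replicate 1, 285 without UNC0638 replicate 2, 218 without replicate 1 of both inhibitors and 354 without its replicate 2, and of the 160 lower probes 14, 24, 18 and 50 were.

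The largest rise among genes well above background on all 4 arrays was that of HULC, a long non-coding RNA known from liver cancer, whose probe lies at chr6:8653917-8653976 (GRCh37). Its levels were -3.33 and -3.94 with UNC0638 and 3.15 and 1.90 with both inhibitors. The groups were far apart, and the DMSO arrays were lower still and not above background. The difference was 6.16 ± 0.47 (SE, n = 2 arrays per group), a 71.6-fold rise (limma, adjusted p = 0.00186).

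S100A8 and S100A9, which encode the paired subunits of the myeloid protein calprotectin, rose together. S100A8 had levels of -2.46 and -3.51 with UNC0638 and 2.87 and 0.72 with both inhibitors, and S100A9 had -2.55 and -3.48 against 1.59 and 0.10. In both genes replicate 1 was above replicate 2 in each of these groups, and the groups did not overlap. The rises were 27.6-fold for S100A8 (4.79 ± 0.82, adjusted p = 0.0305) and 14.5-fold for S100A9 (3.86 ± 0.61, adjusted p = 0.0234), and both calls were lost without either UNC0638 array or replicate 1 of both inhibitors (largest adjusted p 0.152 and 0.116). Of 9 tested S100 genes these and S100A10, an annexin partner, were called higher, beside 3.26% of all tested genes. S100A10 had the smallest rise of the 3 (2.34-fold, adjusted p = 0.0100, lost without the same 3 arrays, largest adjusted p 0.0828). CD180, a Toll-like receptor homologue of B cells, rose 12.9-fold from -3.53 and -2.80 to 0.50 and 0.56 (adjusted p = 0.00362), and its combination arrays lay close together. The other large rises were those of the cancer-testis gene SPANXB2 (21.5-fold, adjusted p = 0.00532), the egg coat glycoprotein gene ZP4 (20.5-fold, adjusted p = 0.0243), the fetal globin gene HBG1 (18.3-fold, adjusted p = 0.0311) and FXYD2, a regulator of the sodium pump (16.1-fold, adjusted p = 0.00511). The calls of ZP4 and HBG1 were lost without any of 5 and 6 single arrays, with largest adjusted p of 0.125 and 0.145.

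Some genes went from background to a clear level. AGR2, an endoplasmic reticulum protein disulfide isomerase of secretory epithelia, had levels of -4.79 and -5.01 with UNC0638, not above background, and 2.37 and 1.90 with both inhibitors, a rise of at least 93.4-fold (adjusted p = 0.000652). SLN, which encodes sarcolipin, an inhibitor of the muscle calcium pump, had -5.30 and -5.50 against 0.66 and -0.12, a rise of at least 25.6-fold (adjusted p = 0.00145). AGR2 was already high on both GSK126 arrays, at 1.55 and 1.43, whereas SLN was not above background on any array but the combination arrays. A second HBG1 probe rose at least 40.7-fold, RRAD, a small GTPase of muscle, at least 30.4-fold and SPANXA1 at least 25.6-fold. The RRAD call was lost without UNC0638 replicate 2 (adjusted p = 0.0649), and that of SPANXA1 without either UNC0638 array (largest adjusted p 0.07). Probes of near-identical genes, here HBG1 with its copy HBG2 and the SPANX genes, can read more than 1 gene.

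The falls were smaller. BEGAIN, a postsynaptic scaffold protein, had levels of -0.19 and -0.14 with UNC0638 and -3.32 and -2.09 with both inhibitors, a 5.79-fold fall (-2.53 ± 0.39, adjusted p = 0.0218) that was lost without either UNC0638 array (largest adjusted p 0.106). SYT12, a synaptotagmin, fell 5.26-fold from 1.09 and 0.90 to -1.61 and -1.19 (-2.39 ± 0.25, adjusted p = 0.00594). In both genes every combination array was below every other RPMI-8226 array. A pair of probes at chr5:175600435-175600494 and chr5:175602838-175602897 (GRCh37) fell 4.57-fold (adjusted p = 0.00156) and 3.95-fold (adjusted p = 0.00323). The array files give both as LOC643201, and RefSeq accessions name the latter CEP192P1, so that 1 locus may stand under both names among the 10 largest falls. NCAM1, the adhesion molecule CD56 that many myelomas carry, fell 3.62-fold from 0.18 and -0.07 to -1.68 and -1.93 (adjusted p = 0.00326). A brighter NCAM1 probe had a difference of -0.90 (adjusted p = 0.0715, 0.012 with the block). HGF, a growth factor that myeloma cells secrete, fell 3.17-fold from -2.17 and -2.29 to -3.84 and -3.96 (adjusted p = 0.00463), and its other probe fell by 1.24 (adjusted p = 0.0136).

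The remaining falls among the 10 largest were those of the pseudogene DPY19L2P3 (-1.96, adjusted p = 0.00126), C4orf50 (-1.95, adjusted p = 0.0239), the neuronal pseudokinase CAMKV (-1.90, adjusted p = 0.00779) and CTTN, the actin-binding protein cortactin (-1.73, adjusted p = 0.0409). CTTN lost its call without any of 6 single arrays (largest adjusted p 0.204), C4orf50 without 3 (0.129) and CAMKV without UNC0638 replicate 1 or replicate 1 of both inhibitors (0.0619). For DPY19L2P3 the other 2 probes had differences of -0.52 and -0.93 and were not called, although the latter was with the block (adjusted p = 0.052 and 0.0375). Falls into the background were seen for VIPR2, a receptor of vasoactive intestinal peptide (at least 4.09-fold), CDC14C (at least 3.29-fold), another CEP192P1 probe (at least 3.13-fold), DONSON, a replication fork protein (at least 2.29-fold), and FLJ16779 (at least 2.19-fold). A brighter DONSON probe gave -0.09 (adjusted p = 0.868) and another CDC14C probe -0.12, so neither fall was seen by every probe of its gene. Each of these 5 calls was lost without some single arrays, up to an adjusted p of 0.201 for FLJ16779.

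**Figure D1:**
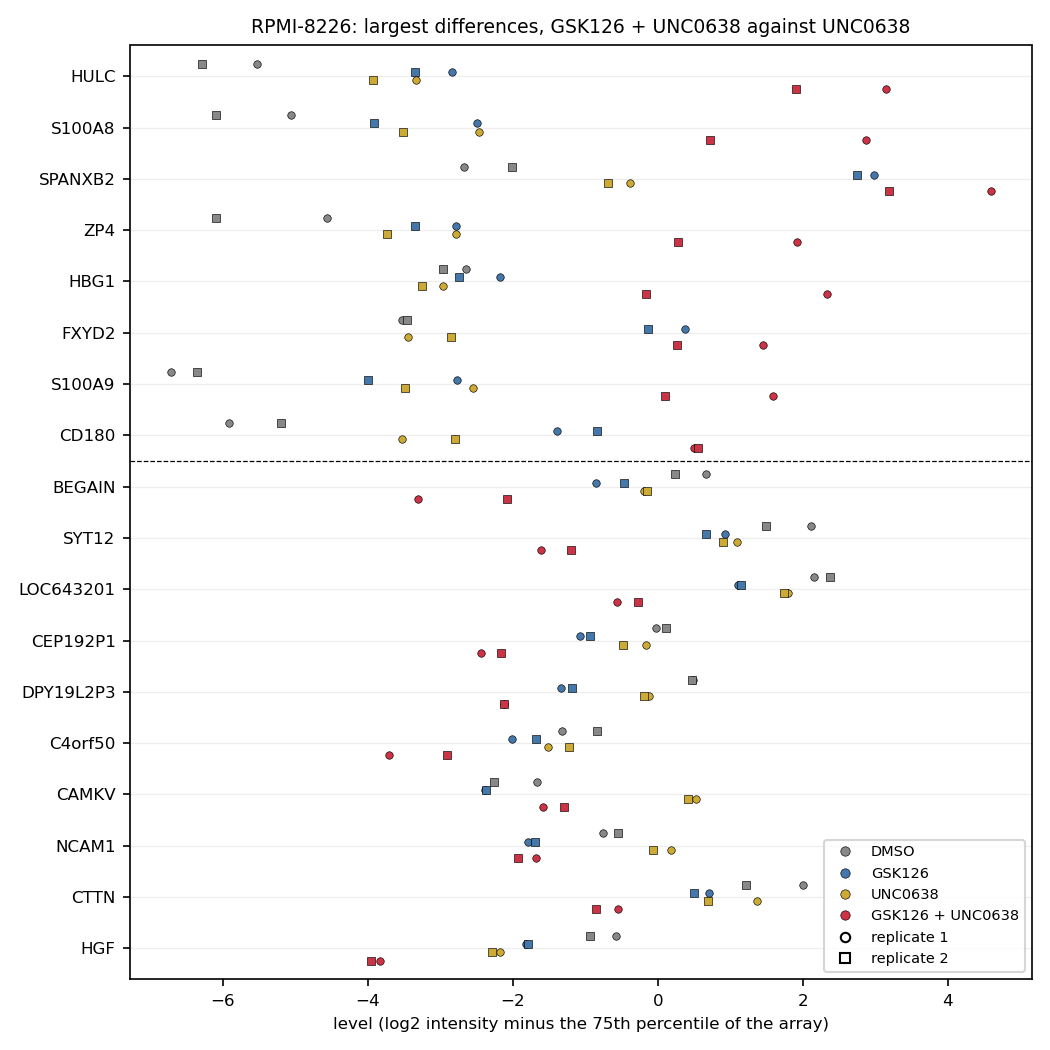
Levels (log2 intensity minus the 75th percentile of the array) on each of the 8 RPMI-8226 arrays for 8 of the 10 largest rises (above the dashed line) and the 10 largest falls among called genes well above background on all 4 compared arrays. Colours mark the treatment, circles replicate 1 and squares replicate 2, and red (GSK126 + UNC0638) and yellow (UNC0638) points do not overlap in any of these 18 rows.

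Some genes of the interferon response rose. Of 55 tested genes of a type I interferon response list, 12 were called higher and 0 lower (16 and 0 with the block), against 3.26% of all tested genes called higher and 0.635% lower (6.28% and 1.80% with the block). Their median difference was 0.77, against -0.08 for all genes, and 41 of the 55 were higher on both combination arrays than on both UNC0638 arrays, against 23.7% of all genes. Of 20 tested genes typical of the interferon gamma response, 6 were called higher and 0 lower (8 and 1 with the block), with a median of 0.62. These lists were chosen with results of these data known, so their direction is not independent evidence.

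Transcription factors that carry the interferon signal were among them. IRF9, the DNA-binding part of the type I interferon complex, had levels of -0.85 and -0.76 with UNC0638 and 0.53 and 0.44 with both inhibitors. The replicates lay close together and the groups were well apart. IRF9 rose 2.44-fold (1.28 ± 0.18, adjusted p = 0.0146), and IRF7, which drives interferon genes, rose by 1.27 (adjusted p = 0.019). Of 8 tested interferon genes and receptors none was called in limma (3 higher at an unadjusted p below 0.05, and 2 higher with the block, IFNLR1 and IFNGR1, at adjusted p = 0.0177 and 0.0372, each with a difference of 0.84). IFNA2 and IFNB1, which encode type I interferons, were not well above background in either group.

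Among the targets, ISG15, a ubiquitin-like modifier, had levels of 2.21 and 2.43 with UNC0638 and 4.01 and 4.29 with both inhibitors. IFIT1, which binds foreign RNA, had -1.47 and -1.11 against 0.95 and 1.60. Both genes were higher on the combination arrays than on any other RPMI-8226 array. ISG15 rose 3.55-fold (1.83 ± 0.23, adjusted p = 0.0100) and IFIT1 5.95-fold (2.57 ± 0.42, adjusted p = 0.0273). XAF1, a proapoptotic protein, rose 5.76-fold (2.52 ± 0.28, adjusted p = 0.00657), TDRD7, an antiviral Tudor protein, 3.54-fold (1.83 ± 0.18, adjusted p = 0.00507) and PARP9, an ADP-ribosyltransferase of the interferon response, 4.35-fold (2.12 ± 0.24, adjusted p = 0.00702). Further called members were IFI44 (2.25), OAS1, a synthetase that senses double-stranded RNA (1.90), PARP14 (0.71) and USP18, which removes ISG15 from proteins (at least 2.25-fold).

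OAS3 went from -4.29 and -4.90 to -1.95 and -1.68 (2.78 ± 0.59), which did not pass without the block (adjusted p = 0.0597) and just passed with it (0.04998), and IFI6 had a difference of 1.94 (adjusted p = 0.0679). OASL (1.36), MX1 (2.05) and SAMD9L (2.11) passed only with the block (adjusted p = 0.0381, 0.0377 and 0.00286). The range over the list was wide, from -0.64 in TRIM14 (adjusted p = 0.103) to 3.46 in USP18, whose levels with UNC0638 were not above background. IFITM1, a membrane protein that restricts virus entry, had -0.19 (adjusted p = 0.691). Without single arrays fewer of the 12 calls remained, namely 3 without UNC0638 replicate 1, 4 without its replicate 2, 2 without replicate 1 of both inhibitors and 3 without its replicate 2, and XAF1 and TDRD7 were called in each case. The list's median stayed between 0.62 and 0.88 over all alternatives run on it.

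Among the interferon gamma genes UBD, a ubiquitin-like protein, had levels of -5.18 and -6.08 with UNC0638, not above background, and 0.11 and -0.10 with both inhibitors. CXCL9, a chemokine that attracts T cells, had 0.07 and -0.07 against 2.16 and 2.79. SOCS3, a feedback inhibitor of cytokine signalling, had -3.43 and -3.45 against -1.50 and -1.38. In all 3 genes the groups lay further apart than the replicates, which were closest in SOCS3, and all 3 stayed called without any single array. UBD rose at least 21.3-fold (adjusted p = 0.000631), CXCL9 5.55-fold (2.47 ± 0.26, adjusted p = 0.00591) and SOCS3 3.99-fold (adjusted p = 0.00156). UBD passed the filter only through the combination arrays, so its direction was set by the filter and its call is a description. The guanylate-binding proteins GBP4 (1.68, adjusted p = 0.0117), GBP2 (1.92, adjusted p = 0.0411) and GBP1 (at least 1.92-fold, adjusted p = 0.0216) were the other calls, each lost without at least 1 of the compared arrays, and CXCL10 had 1.07 (adjusted p = 0.054, 0.0119 with the block).

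**Figure D2:**
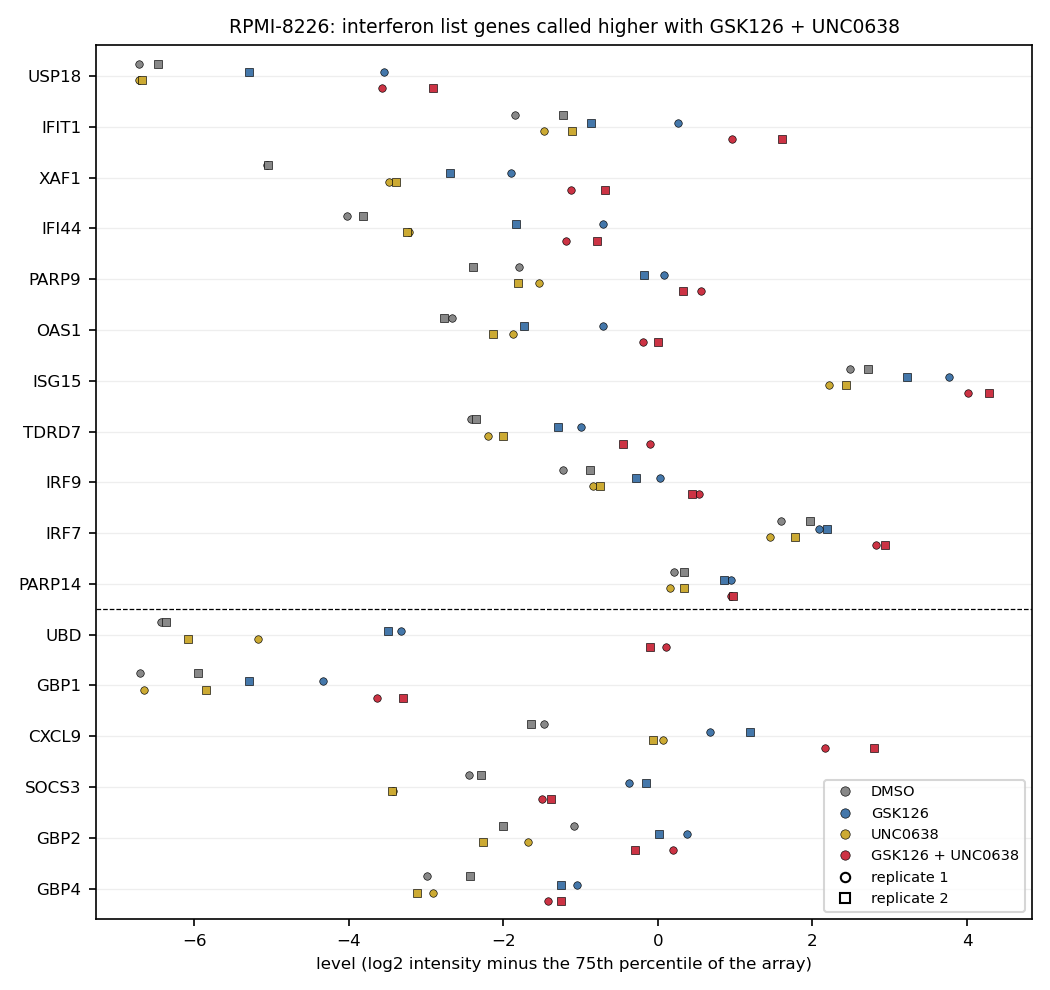
Levels (log2 intensity minus the 75th percentile of the array) on each of the 8 RPMI-8226 arrays for 11 of the 12 called genes of the type I interferon response list (above the dashed line) and the 6 called genes of the interferon gamma list. Colours mark the treatment, circles replicate 1 and squares replicate 2, and in each gene both GSK126 + UNC0638 arrays (red) lie above both UNC0638 arrays (yellow).

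Many promoters of these genes hold the sequence through which interferon is known to act. The letters GAAANNGAAA, the core of the interferon-stimulated response element, were searched on both strands in the RefSeq promoters of GRCh38.p14 (250 bases before to 50 after the start of each gene). They were found in 3.57% of all 35116 promoters, in 2.90% of those of the tested genes and in 30 of 365 (8.22%) of those of genes called higher. Of the type I list, 26 of 44 promoters held them (59.1%), and of its called genes 4 of 9, and of the interferon gamma list 6 of 14 promoters did (42.9%). The sites of called interferon genes are shown on the strand of the gene with the matched letters in capitals, where TTTCNNTTTC is the motif read on the opposite strand. A match describes the sequence only and was not tested for binding.
IFI44, chr1:78649761-78649790: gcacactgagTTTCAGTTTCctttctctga
IFIT1, chr10:89392497-89392526: ctagctttagTTTCACTTTCccctttcggt
ISG15, chr1:1013374-1013403: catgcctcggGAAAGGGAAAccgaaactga
PARP14, chr3:122680800-122680829: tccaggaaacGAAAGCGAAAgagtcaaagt
GBP1, chr1:89065316-89065345, minus strand: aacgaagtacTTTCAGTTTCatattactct
GBP4, chr1:89198927-89198956, minus strand: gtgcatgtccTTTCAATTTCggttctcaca
CXCL9, chr4:76007661-76007690, minus strand: ccatttatgtGAAATGGAAAtaaaaacatg
In ISG15 a second match overlaps the one shown, and in IFIT1 a second match lies close beside it. The ISG15 and IFIT1 sites belong to 2 of the genes whose levels on the combination arrays were above those on all other RPMI-8226 arrays.

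Antigen presentation genes behaved unevenly. Of 21 tested MHC class I and peptide-loading genes none was called in limma, with or without the block (5 higher at an unadjusted p below 0.05, with an adjusted p of 0.128 for HLA-E and 0.131 for HLA-F), with a median difference of 0.19, although a second HLA-F probe was called higher (1.69, adjusted p = 0.0302). Of 16 tested MHC class II genes 2 were called higher, beside 3.26% of all tested genes. They were HLA-DQA1 and HLA-DQA2, the alpha chains of HLA-DQ and of its close relative. Both passed the filter only through the combination arrays, so their direction was set by the filter and their calls are descriptions. HLA-DQA1 had levels of -6.37 and -6.37 with UNC0638, not above background, and -2.50 and -1.84 with both inhibitors, a rise of at least 4.71-fold (adjusted p = 0.000652), and HLA-DQA2 rose at least 1.85-fold (adjusted p = 0.00113). Their sequences are alike, so that a probe may read both.

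The other class II genes depended on the replicate. HLA-DPA1 had levels of -3.83 and -0.83 with UNC0638 and -0.60 and 1.05 with both inhibitors, so that replicate 2 was above replicate 1 in each group by more than 1 log2 unit. Its difference of 2.56 was not called (adjusted p = 0.296) but was with the replicate block (0.0115), and the same held for its partner HLA-DPB1 (2.60, adjusted p = 0.298 and 0.0111) and for the peptide-loading genes HLA-DMA and HLA-DMB (block adjusted p = 0.0346 and 0.0477). With the block 6 of 16 were called higher, beside 6.28% of all tested genes. The median of 0.74 became -0.02 without replicate 2 of both inhibitors, 0.19 without UNC0638 replicate 1 and 1.52 without UNC0638 replicate 2. CIITA, the master activator of class II genes, had a difference of 0.21 (adjusted p = 0.858).

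Some B cell genes rose. Of 33 tested genes of B cell identity and surface, 10 were called higher and 0 lower (16 and 2 with the block), beside 3.26% and 0.635% of all tested genes (6.28% and 1.80% with the block), with a median of 1.17 (0.46 without the filter on dim probes). BCL6, the transcription factor of germinal centre B cells that opposes plasma cell differentiation, had levels of -1.84 and -1.99 with UNC0638 and -0.63 and -0.55 with both inhibitors, and BACH2, which acts with it, had -3.66 and -3.83 against -2.61 and -2.54. Neither gene overlapped between groups, and the rises were 2.51-fold (1.33 ± 0.17, adjusted p = 0.0118) and 1.18 ± 0.20 on the log2 scale (adjusted p = 0.0281). ID3, an inhibitor of E-protein transcription factors, rose 3.39-fold (adjusted p = 0.00775), and MS4A1, which encodes CD20, rose by 2.49 from -2.49 and -3.06 to 0.24 and -0.81 (adjusted p = 0.0234). The low-affinity IgG receptors FCGR2C (2.18, adjusted p = 0.00379), FCGR2A (1.77, adjusted p = 0.0213) and FCGR2B (at least 6.35-fold, adjusted p = 0.0258), whose sequences are near-identical in part, rose. FCRL3 (at least 4.05-fold, adjusted p = 0.00379), FCRL4 (at least 6.83-fold, adjusted p = 0.0134) and the kinase LYN (0.95, adjusted p = 0.0263) rose as well. FCGR2B, FCRL3 and FCRL4 passed the filter only through the combination arrays, so their direction was set by the filter and their calls are descriptions. FCGR2C and FCRL3 were still called without any single array, whereas BCL6 lost its call without each of the 4 compared arrays (largest adjusted p 0.0821).

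IRF4 fell, and MYC, PRDM1 and KLF2 were not called at their brightest tested probes. IRF4 had levels of 2.35 and 2.21 with UNC0638 and 0.85 and 1.16 with both inhibitors, and the combination arrays were below all other RPMI-8226 arrays. The fall was 2.42-fold (-1.28 ± 0.18, adjusted p = 0.0173), and the call was lost without either UNC0638 array or replicate 1 of both inhibitors (largest adjusted p 0.119). MYC had 6.91 and 6.95 against 6.05 and 6.52, a difference of -0.65 ± 0.18 (adjusted p = 0.125). A second, dimmer MYC probe was called lower and fell by 1.41 (adjusted p = 0.0102), but was above background on only 1 combination array. PRDM1, the master regulator of plasma cells also called BLIMP1, had -0.30 (adjusted p = 0.468), and KLF2 had -0.36 (adjusted p = 0.813) with its sign turned by leaving out single arrays.

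Of 20 tested plasma cell and IRF4-MYC genes, 1 was called lower and none higher (3 lower with the block), and their median was -0.32. Of all tested genes 0.635% were called lower (1.8% with the block). TNFRSF17, the plasma cell survival receptor BCMA, had a difference of -1.97 (adjusted p = 0.0603, 0.0167 with the block), and FKBP11, a secretory pathway chaperone, -0.89 (adjusted p = 0.075, 0.0306 with the block). SDC1, which encodes CD138, had -0.61 (adjusted p = 0.0876) and XBP1, the transcription factor of secretory cells, -0.19 (adjusted p = 0.538). SLAMF7, another myeloma surface antigen, had 1.87 (adjusted p = 0.0706).

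Some markers of other blood lineages moved with these results. Of 5 tested T and NK cell markers 2 were called higher (3 with the block), beside 3.26% of all tested genes (6.28% with the block). They were CD3D, a subunit of the T cell receptor complex (6.97-fold, from -0.35 and -0.56 to 2.42 and 2.27, adjusted p = 0.00665), and NKG7 (at least 4.98-fold, adjusted p = 0.0112). NKG7 passed the filter only through the combination arrays, so its direction was set by the filter. CD8A was not called, at 0.62 and 0.48 with UNC0638 and 0.57 and 0.41 with both inhibitors. Of 3 tested myeloid markers 2 were called, CD14, the co-receptor for lipopolysaccharide (6.32-fold, from -1.55 and -1.03 to 1.21 and 1.54, adjusted p = 0.00387), and the integrin ITGAM (11.5-fold, adjusted p = 0.0234), and CSF1R had 3.30 (adjusted p = 0.0789, 0.00286 with the block). Without replicate 1 of both inhibitors the calls of CD3D (adjusted p = 0.0572), NKG7 and ITGAM were lost, the latter also without UNC0638 replicate 2 and NKG7 without either UNC0638 array (largest adjusted p 0.0711 for NKG7 and 0.13 for ITGAM). The summed relative level of the T and NK markers was between 4.89 and 5.86 with UNC0638 and between 13.03 and 15.2 with both inhibitors, that of the myeloid markers went from between 0.518 and 0.844 to between 4.45 and 5.20, and that of the plasma cell markers from between 223 and 247 to between 162 and 209. That of 3 erythroid markers went from between 0.145 and 0.177 to between 0.316 and 0.81, and that of 5 stromal and epithelial markers, mostly EPCAM, from between 24.6 and 27.3 to between 12.3 and 15.01. The defining markers MPO (myeloid), ALAS2 (erythroid), KRT19 (epithelial) and PECAM1 (endothelial) were not above background on any RPMI-8226 array. In such bulk samples more cells of a type and more RNA per cell cannot be told apart, and the part of these markers in the other results was not tested.

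Some globin and chemokine genes also rose. Of 5 tested globin genes 3 were called higher, beside 3.26% of all tested genes, among them HBB, adult beta-globin, which had levels of -6.37 and -6.40 with UNC0638, not above background, and -0.55 and -2.33 with both inhibitors (at least 7.84-fold, adjusted p = 0.00635), and HBD (1.98, adjusted p = 0.0273). Replicate 1 of both inhibitors was the higher array in HBB, HBD and HBG1 alike. Of 31 tested chemokine and adhesion genes 6 were called higher (9 higher and 1 lower with the block), namely the lymph node homing receptor CCR7 (at least 7.69-fold), the integrin ITGAX (at least 3.68-fold), the chemokines CCL4 (at least 8.61-fold), CCL3 (3.09) and CXCL8 (1.97), and ITGB1 (0.99), with adjusted p between 0.00611 and 0.0409. Of the globin and chemokine calls, HBB and ITGAX were the ones still made whichever single array was left out. HBB, CCR7, ITGAX and CCL4 passed the filter only through the combination arrays, so their direction was set by the filter and their calls are descriptions. The CCL3 and CCL4 probes may also read near-identical copies of these genes.

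Developmental and germline genes, the classical targets of PRC2 and of G9a, were mostly dim. Only 6 of 39 HOX genes and 27 of 84 developmental regulators known to be bound by PRC2 were bright enough to test, and of the HOX genes HOXB2 was called (3.90-fold, from -3.21 and -2.97 to -1.06 and -1.19, adjusted p = 0.00243), with another HOXB2 probe at 0.73 and not called, and 2 HOX genes with the block. None of the 27 developmental regulators was called in limma (4 higher and 3 lower at an unadjusted p below 0.05, and 3 higher and 1 lower with the block), the nearest being WNT6 (-0.68, adjusted p = 0.0645), lower with the block (0.0368). TBX3 had an adjusted p of 0.105 and was higher with the block (0.0191). Of 21 tested germline and cancer-testis genes 3 were called higher (5 with the block), beside 3.26% of all tested genes (6.28% with the block). They were SPANXA1, SSX1 (at least 5.24-fold, adjusted p = 0.00156) and PAGE2 (at least 5.56-fold, adjusted p = 0.00211). All 3 passed the filter only through the combination arrays, so their direction was set by the filter and their calls are descriptions. TEX19 was called lower (-1.18, adjusted p = 0.0342). TEX19 lost its call without any of 7 single arrays (largest adjusted p 0.195).

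The targeted enzymes themselves were not called at the RNA level. EZH2 had levels of 2.71 and 2.71 with UNC0638 and 2.56 and 2.67 with both inhibitors (-0.10 ± 0.14, adjusted p = 0.732), and EHMT2 had 1.01 and 0.99 against 0.48 and 0.64 (-0.44 ± 0.22, adjusted p = 0.329). None of 13 PRC2 genes, 18 genes of H3K9 methylation and 12 demethylases of H3K27 and H3K9 was called in limma (at an unadjusted p below 0.05 there were 2, 3 and 1). With the block KDM6B, an H3K27 demethylase, was called higher (0.78, adjusted p = 0.0445), and the medians of these lists were -0.18, -0.15 and 0.06. The inhibitors act on the enzymes' activity, which these arrays do not measure.

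Proliferation and biosynthesis genes lay below the median of all genes, with small differences. None of 66 tested G1/S and DNA replication genes was called in limma, with or without the block (0 higher and 23 lower at an unadjusted p below 0.05), but 55 had both combination arrays below both UNC0638 arrays, against 38% of all tested genes, and their median was -0.36. Of 72 tested ribosome biogenesis genes 0 were called in limma (1 lower with the block, 34 lower at an unadjusted p below 0.05) and 67 had non-overlapping lower arrays, with a median of -0.44 and a range from -0.72 to 0.04. The median of all genes was -0.08, and with scaling on the detected probes, which raised the median of all probes by 0.11, these list medians were -0.25 and -0.33. POLR1C, a subunit of RNA polymerases I and III, had -0.66 (adjusted p = 0.10, 0.0491 with the block) and GINS1, of the replicative helicase, -0.62 (adjusted p = 0.0963). Of 46 tested genes of G2 and mitosis and of 26 of cholesterol synthesis none was called in limma, with or without the block (1 and 0 lower at an unadjusted p below 0.05), with medians of -0.14 and -0.15.

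Of 47 tested genes of ATF4 and the amino acid response 3 were called lower and none higher (5 and 2 with the block), with a median of -0.35. Of all tested genes 0.635% were called lower and 3.26% higher (1.8% and 6.28% with the block). ASS1, argininosuccinate synthase, had levels of 4.88 and 4.84 with UNC0638 and 3.29 and 3.49 with both inhibitors, a 2.77-fold fall (-1.47 ± 0.16, adjusted p = 0.00594). ASNS, asparagine synthetase, fell by 0.93 from 5.52 and 5.43 to 4.38 and 4.72 (adjusted p = 0.0402), and STC2, a secreted glycoprotein, fell by 1.14 (adjusted p = 0.0397). In all 3 genes the combination arrays were the lowest of the 8, and each call was lost without some single arrays (largest adjusted p 0.0507, 0.238 and 0.223). Of 39 tested endoplasmic reticulum and unfolded protein response genes none was called in limma (1 lower with the block, 7 lower at an unadjusted p below 0.05), with a median of -0.25. Of 15 BCL2 family genes and 4 endogenous retroviral envelope and related genes none was called with or without the block (4 higher and 1 lower, and 0, at an unadjusted p below 0.05). Of 24 cell cycle inhibitors and p53 targets CDKN2D, an inhibitor of CDK4 and CDK6, was called higher (0.83, adjusted p = 0.0452) and lost its call whichever of the 8 arrays was left out (largest adjusted p 0.251). This was 4.17% of the list, near the 3.26% of all tested genes, and 4 of the 24 were called higher with the block. Of 22 NF-kappaB genes BCL3, a nuclear co-factor of the pathway, was called higher (1.54, adjusted p = 0.0186, lost without either UNC0638 array or replicate 1 of both inhibitors, largest adjusted p 0.126), again a share near that of all genes (4.55%), with 2 called higher with the block.

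**Figure D3:**
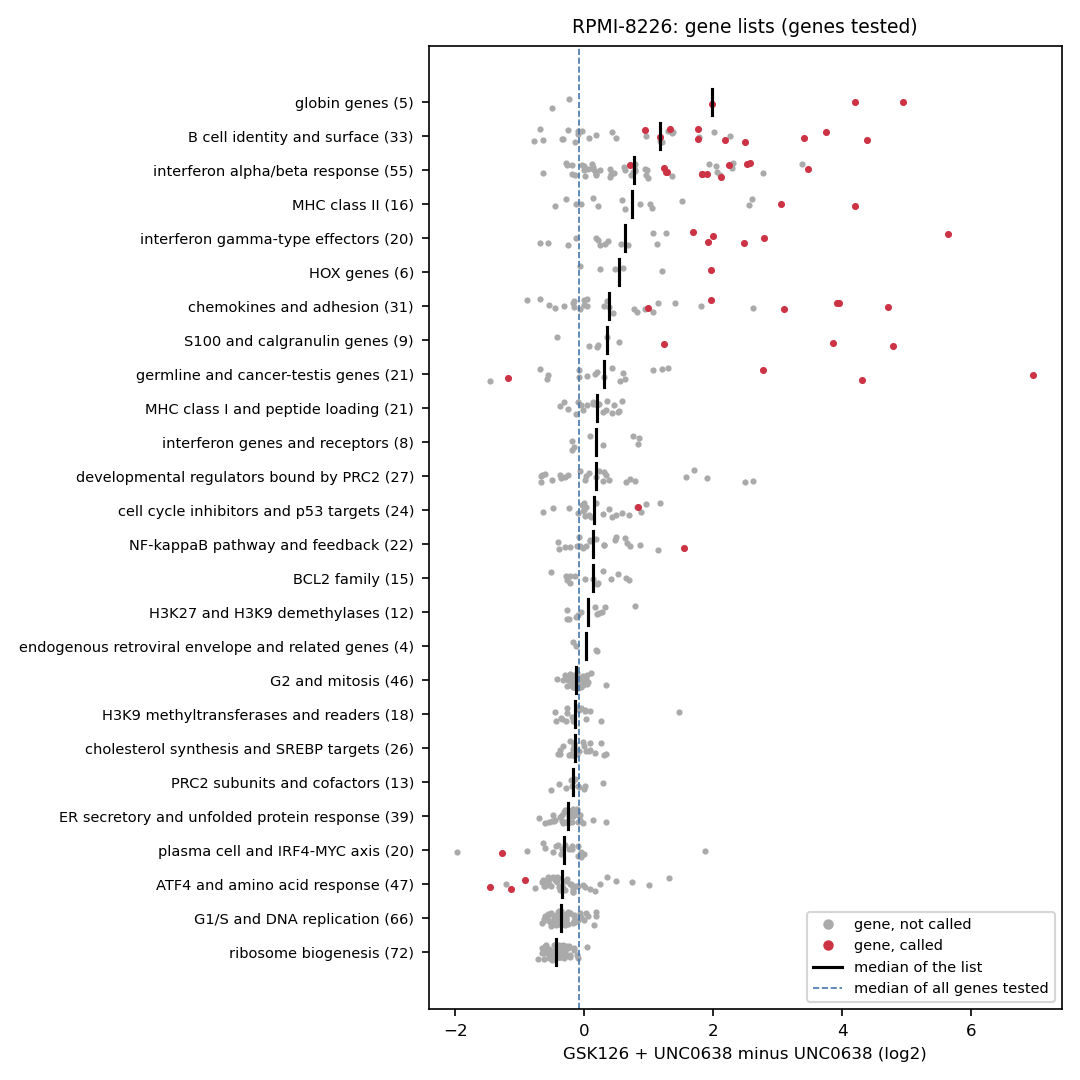
Difference between GSK126 + UNC0638 and UNC0638 (log2, means of 2 arrays) for each tested gene of each list in RPMI-8226 cells, with the number of tested genes in brackets; red points were called, bars are list medians and the dashed line is the median of all genes. Called genes lie on the right in the globin, B cell and interferon lists, and the ribosome biogenesis and G1/S lists lie to the left of the dashed line with no called gene.

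Whether UNC0638 altered the response to GSK126 was tested as the difference between the GSK126 effect with UNC0638 and the GSK126 effect without it, which share no array. GSK126 against DMSO had 135 higher (0.595%) and 14 lower (0.0617%) calls on the same probes. Of the 643 probes raised in the presence of UNC0638, 615 also had a positive difference for GSK126 against DMSO, 128 of them called, with a median of 0.99. The differences of the 2 contrasts had r = 0.69 across probes, a description only, since probes do not vary independently. The difference between the effects was called for 38 probes (0.167%), all of them higher, and for 0 lower (limma, 934 probes at an unadjusted p below 0.05). All 38 were also higher in the main comparison, and 37 of them were above background on none of the 6 other RPMI-8226 arrays. Those 37 passed the filter only through the combination arrays, on which they are high, so their direction was set by the filter and the count is a description. Among probes well above background on all 4 compared arrays the count was 0 in limma (629 at an unadjusted p below 0.05). No call of this kind was left in limma without DMSO replicate 2, UNC0638 replicate 1 or UNC0638 replicate 2 (972, 643 and 738 probes at an unadjusted p below 0.05).

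Named examples were hormones and differentiation genes of other tissues. PRL, the pituitary hormone prolactin, had levels between -6.46 and -5.99 on the 6 other arrays and -0.86 and -1.22 with both inhibitors, a rise of at least 10.3-fold over UNC0638. GRP, gastrin-releasing peptide, had -4.72 and -4.61 with UNC0638 and -1.15 and -0.90 with both (at least 10.4-fold), and TYRP1, a pigment enzyme, rose at least 4.28-fold. All 3 were above background on the combination arrays and on none of the other 6. The transcripts LOC100505663 (at least 7.19-fold) and XLOC_013457 (at least 9.71-fold) had the same pattern, and SLN, SSX1 and the collagen gene COL1A2 (at least 3.22-fold over UNC0638) were also among the 38. Since the levels on the other arrays were not measured above background, no p-value of the difference between the effects is given for these genes.

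For most genes named above the difference between the effects was not called. For AGR2 it was 0.32 ± 0.51, for CXCL9 -0.01 ± 0.37 and for CD180 -0.75 ± 0.48 (SE), each with an adjusted p of 1. ISG15 (0.94 ± 0.32, adjusted p = 1), IFIT1 (1.33 ± 0.60, adjusted p = 1), IRF4 (-1.01 ± 0.26, adjusted p = 0.701) and UBD (2.65 ± 0.40, adjusted p = 0.136) had larger values that did not pass. HULC had 3.34 ± 0.67 (adjusted p = 0.315), and passed with the replicate block (0.0209). AGR2 and UBD were above background on no DMSO or UNC0638 array, and CD180 and HULC on no DMSO array. For these genes the difference between the effects rests in part on readings at background, so its size was not measured. In the type I interferon list the GSK126 effect had a median of 0.50 without UNC0638 and 0.77 with it, and none of its genes passed the test of the difference. In all, 303 probes were above background on both combination arrays and on none of the other 6, of which 191 were called higher, and 20 probes stood out in the same way for UNC0638.

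**Figure D4:**
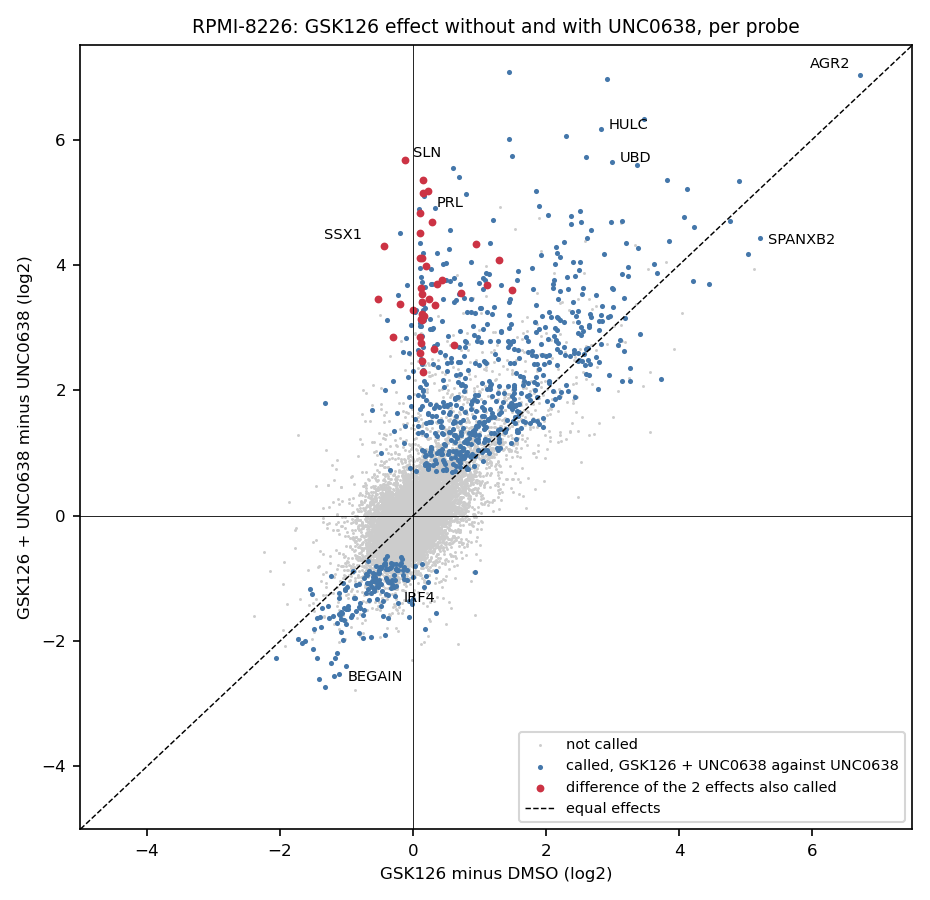
Effect of GSK126 without UNC0638 (x, log2 difference from DMSO) against its effect with UNC0638 (y, log2 difference from UNC0638 alone) for the 22701 tested probes in RPMI-8226 cells, as measured, dim probes included. Blue points were called on the y axis, the 38 red points were also called for the difference between the effects and lie near 0 on the x axis, and the dashed line marks equal effects.

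In MM.1S cells the same comparison gave 1624 higher (6.65%) and 2038 lower (8.35%) calls among 24421 tested probes, which fell to 178 and 90 without replicate 2 of both inhibitors and to 257 and 16 without UNC0638 replicate 1. Of the 643 probes raised in RPMI-8226 cells, 393 were bright enough to test in MM.1S, where 337 had the same sign, 139 (35.4%) were called in the same direction and 3 in the opposite one, with a median of 0.49. Over all probes tested in both lines 5.57% were called higher in MM.1S. Of the 160 probes that fell, 101 were tested in MM.1S, and 21 (20.8%) were called lower and 8 higher, beside 9.26% lower over all shared probes. BCL6 (2.33, adjusted p = 0.0116), S100A10 (2.01, adjusted p = 0.0116), ID3 (1.41, adjusted p = 0.0193), IFIT1 (1.54, adjusted p = 0.0338), ISG15 (0.86, adjusted p = 0.0259) and IRF4 (-0.48, adjusted p = 0.0489) were called in MM.1S in the direction of RPMI-8226. MYC was called lower in MM.1S (-0.56, adjusted p = 0.0335), at a difference close to the -0.65 that did not pass in RPMI-8226.

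The difference between the lines was itself called for 189 probes (0.909%) with a larger value in RPMI-8226 and 131 (0.63%) with a smaller one, of 20799 tested in both (404 and 359 with the replicate block). Of the RPMI-8226 calls tested in both lines, 161 of 393 rises and 36 of 101 falls differed between the lines. These probes were picked by their difference on the same RPMI-8226 arrays, which favours a difference between the lines, so the counts are descriptions. HBB (-0.14 in MM.1S), SLN (-0.15), CD14 (0.22) and CD3D (0.29) were among those with a larger difference in RPMI-8226. DPY19L2P3 fell in RPMI-8226 and was called higher in MM.1S (0.99, adjusted p = 0.0058). Leaving out single arrays gave between 61 and 238 larger and between 40 and 151 smaller values, the lowest counts being those without UNC0638 replicate 1 and without replicate 2 of both inhibitors in MM.1S. The arrays of each line were on 1 slide, so slide and line cannot be told apart.

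**Figure D5:**
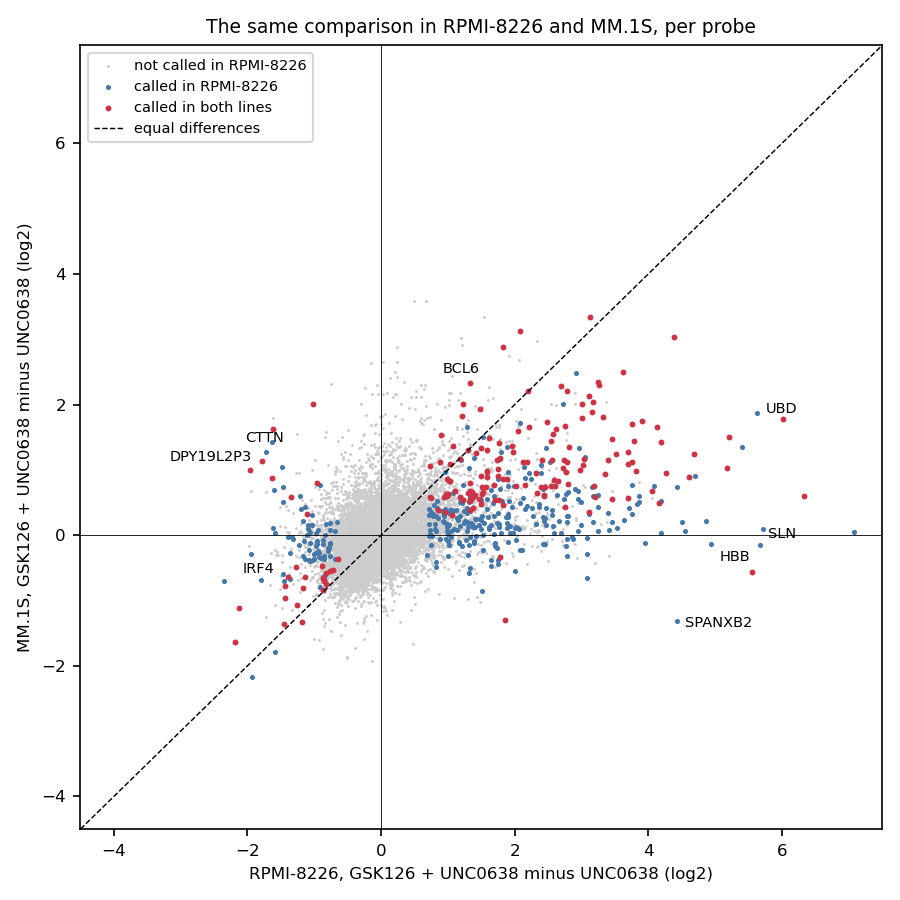
Difference between GSK126 + UNC0638 and UNC0638 (log2) in RPMI-8226 (x) against MM.1S (y) for the 20799 probes tested in both lines. Blue points were called in RPMI-8226, red points in both lines, and the dashed line marks equal differences; most called rises lie below that line, SLN and HBB near 0 on the y axis and BCL6 among those called in both.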

How the data were processed

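The authors labelled 1 RNA sample per array with Cy3, and deposited for each spot a linear-scale intensity, background-subtracted in Agilent Feature Extraction 10.7, as named in the submitters' processing notes. No scaling between arrays had been applied, and the paper names no normalization or test for them. A table of the whole series holds the same intensities, rounded (99.995832% of 1007616 values were equal after that rounding), and served as an alternative.

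Controls (4259 of 62976 spots) and outlier spots (224 to 358 per RPMI-8226 array) were removed. Intensities were log2-transformed, lowered by the array's 75th percentile and averaged per probe. limma 3.58.1 in R 4.3.3 (lmFit, contrasts.fit, eBayes) used 1 model for the 8 arrays of a line, or for all 16 for the difference between lines, with Benjamini-Hochberg adjustment over all tested probes and a threshold of 0.05. A p-value measures only the spread between these samples, and 2 arrays per group limit its precision. The lowest level well above background lay between -4.50 and -4.04, and for a group dim on both arrays the lower bound of a fold was taken against that level, or the probe's own where higher. On simulated data 75% of 200 probes changed by 1.5 (log2) were recovered over 22700 probes, with 11 false calls.

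The 31 gene lists and the members were chosen with earlier results of these data known. For a list gene the tested probe with the highest mean was used, and lists have counts and medians with no test. The 107 named probes are the 10 largest called rises and falls that are bright on all 4 arrays and do not overlap, the 5 largest lower bounds each way, genes named in the study, up to 4 called genes per list by smallest p (otherwise 2 tested genes), and the 5 smallest p for the difference between the GSK126 effects. Of these, 3 genes are not reported here. Further genes, such as list members called only with the block, were chosen after their values were seen. Symbols came from the array files, with 28174 probes named through RefSeq accessions, and probe positions are those of the array design on GRCh37.

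Same-numbered RPMI-8226 arrays shared deviations in all 6 pairs of groups (r from 0.261 to 0.423 across probes). The numbers were taken as pairs only in the fit with the replicate block, from this check and the labels' numbers, which also follow the slide row. The main fit, which gave the calls and adjusted p-values unless the block is named, left this pairing out. For the main comparison the block gave more calls in each direction. Alternatives were quantile normalization, normexp background correction (offset 50), scaling on detected probes, other filters, the series table, only 4 or all 16 arrays in the fit, an intensity-dependent prior variance, the replicate block and each array left out. The study's other experiments were not analysed here.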

Additional observations from a re-analysis of the deposited data

Results flagged for a closer look

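The difference between the lines, RPMI-8226 minus MM.1S, was called by limma for 17 of the named probes reported here, given here as log2 values of the combination minus UNC0638. It was positive for SPANXB2 (5.74), SLN (5.82), UBD (3.77), HLA-DQA1 (2.77), PAGE2 (2.15), HBB (5.08), HBD (1.94), CCL4 (4.08), BCL3 (1.35), CD3D (2.51), CD14 (2.44), TDRD7 (1.36) and IRF9 (0.93), and for both HBG1 probes (4.17 and 7.03). It was negative for DPY19L2P3 (-2.96) and CTTN (-3.01), which fell in RPMI-8226 and had positive differences in MM.1S. SLN, UBD, HLA-DQA1, PAGE2, HBB, CCL4 and the second HBG1 probe were above background on neither RPMI-8226 UNC0638 array. Their values here rest on readings at background, so their sizes were not measured. Of the 17, 9 stayed called without any single array of the compared groups, namely SPANXB2, the second HBG1 probe, SLN, DPY19L2P3, TDRD7, HLA-DQA1, PAGE2, HBB and CD14. With quantile normalization 16 were called, with normexp 15, and with the scaling on detected probes or the replicate block 17. The named probes were in part picked by their difference on the same RPMI-8226 arrays, which favours a difference between the lines. Since each line was on its own slide, slide and line cannot be told apart.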

How the results depend on the processing

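Of 74 called named probes, all were also called with the replicate block, with outlier spots kept and with the series table, 73 with quantile normalization, 71 with scaling on detected probes, 67 with normexp, 57 with no filter and 55 with only the 4 compared arrays, and between 41 and 70 when 1 array was left out, a fit that assumes the lone array varies like the others. For the main comparison higher and lower calls were 1257 and 436 with the replicate block, 1427 and 1252 in 1 fit over all 16 arrays, 244 and 96 for probes above background on all 4 arrays, 1404 and 311 at 2-fold with no test, and between 218 and 592 and between 15 and 132 with 1 array left out. The lower calls alone moved with normexp (287), with no filter (60), with only 4 arrays (77) and with the intensity-dependent prior (349). The 38 calls of the difference between the GSK126 effects became 4 with normexp, 6 with no filter, 97 over 16 arrays, 51 with the replicate block, 0 with all 4 arrays bright (629 at an unadjusted p below 0.05) or the intensity-dependent prior (829), and between 0 and 54 with 1 array left out, while its 0 lower calls became 4 over 16 arrays, 2 with the block and 0 to 1 with 1 array left out. In MM.1S 1 array left out gave between 178 and 1274 higher and between 16 and 1262 lower calls, and scaling on detected probes 728 lower. The difference between the lines gave 404 and 359 calls with the block, and between 61 and 238 and between 40 and 151 with 1 array left out, a setting chosen after seeing the data. Some signs turned. KLF2 ranged from -1.09 to 0.37 without 1 array (0.32 without UNC0638 replicate 2), EZH2 was 0.019 with quantile normalization and 0.014 with scaling on detected probes, and list medians turned for MHC class II (-0.021 to 1.52 without 1 array), demethylases (-0.082 to 0.087, and -0.0067 with no filter), BCL2 family (-0.029 to 0.21), cholesterol synthesis (0.0043 with quantile normalization), endogenous retroviral genes (-0.22 to 0.054, and -0.089 with quantile normalization), erythroid markers (2.38 to -0.19 with no filter) and stromal and epithelial markers (1.41 to -0.014 with normexp), the latter 2 medians over only 2 tested genes each. The cause was not tested, and probes dim in 1 group are limited to lower bounds.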

Other observations

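Families chosen after their values were seen, and so given with no test, showed further genes that moved with GSK126 added to UNC0638. Of 9 tested PRAMEF genes, a testis-expressed family clustered on chromosome 1, 8 were called higher, with differences from 1.42 to 2.97 and a median of 1.86, and the GSK126 effect without UNC0638 had a median of 1.95. These genes are near-identical, so their probes may not be separate measurements. Of 7 tested SPRR genes of the skin barrier 3 were called higher (SPRR2A, SPRR2C and SPRR2F), of 4 tested GIMAP genes, GTPases of lymphocytes, 3 (GIMAP2, GIMAP4 and GIMAP6), and all 4 tested genes of the beta-globin cluster (HBB, HBBP1, HBD and HBG1). These counts take 1 probe per gene, and 3.26% of all tested genes were called higher. Of the called genes, 2 of PRAMEF, 1 of SPRR and 1 of the beta-globin cluster were above background on neither UNC0638 array. Another probe of SPRR1A, above background only with both inhibitors, was called higher (at least 14.3-fold). The direction of all these dim probes was set by the filter.

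Chromosome 1, which holds the PRAMEF and SPRR genes, S100A8 and S100A9 and the FCGR2 genes, had 108 of 2452 tested probes called higher (4.40%), beside 2.83% over all probes, and chromosomes 18, 6 and 8 had like shares of 4.28%, 4.04% and 3.86%. Among the genes bright only with both inhibitors, TTR, the carrier protein transthyretin, had levels of -1.98 and -1.05 against -6.72 and -6.62 with UNC0638, a rise of at least 7.43-fold. TTR passed the filter only through the combination arrays, on which it is high, so its direction was set by the filter.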
